A study of Mus musculus with 10 samples.

Results

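A set of 29 genes was read at 5 counts per 1000000 gene counts (CPM) or more in every culture of mouse embryonic stem (ES) cells kept in 2i, and far lower in every culture kept in serum. The genes were chosen from the read counts themselves. Each had at least 5 CPM in all 6 libraries last grown in 2i, and its lowest 2i value was at least 8 times its highest value in the 4 serum libraries. Of 24015 genes 39 met both thresholds, and the rule leaves 10 of them out by symbol (Anxa1, Axin2, Cdkn2a, Hoxc13, Nefl, Slc16a14, Slc16a9, Sp5, Tfap2a and Zic2), which gave the 29. Since the difference between media chose the genes, that difference is described here without a test. The tests concern comparisons that the choice did not make: differences between phases of 2i, and differences between the serum cultures. They are not fully free of the choice, since the rule bounded every 2i library from below and every serum library from above.

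The cells carried a reporter of Wnt/β-catenin signalling, came from the inner cell mass of the blastocyst and grew on gelatin with leukaemia inhibitory factor (LIF) in all groups. The 2i medium blocked GSK3 and the ERK pathway with inhibitors at 3 µM and 1 µM, and the cells were passaged every 48 h. There were 5 groups of 2 libraries: serum with LIF throughout (serum), 5 to 6 passages in 2i (first 2i), more than 13 passages in 2i (long 2i), more than 13 passages in 2i followed by 6 in serum (serum return), and 13 in 2i, 6 in serum and 4 to 5 in 2i again (second 2i). Whether the second 2i cells descend from the sampled serum return cells, whether the line is 1 clone, and whether the libraries of a group are separate cultures is not stated in the labels. The p-values therefore reflect the spread between libraries alone, and that spread may be technical.

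Inhibition of GSK3 stabilises β-catenin and relieves repression by Tcf7l1, and inhibition of the MEK kinases blocks the ERK signal through which FGF4 primes ES cells for differentiation. Together the inhibitors hold ES cells in a naive state close to the early epiblast, whereas serum supports a more mixed population in which part of the cells lean towards lineages. Several of the 29 genes are best known from differentiated tissues: Slit2, Epha7, Stmn2, Rims1 and Grid1 from neurons, Mbp and Aspa from oligodendrocytes, Trpm1 and Rab38 from pigment cells and Spic from red pulp macrophages, although Spic is also a marker of naive ES cells.

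The gene counts totalled 16809070 to 27766338 per library, so 1 count corresponded to 0.0360 to 0.0595 CPM. ES cell markers were abundant in all libraries. Over the 8 markers checked, the summed level was 5991 to 6527 CPM in serum and 4379 to 6209 CPM in 2i. Of the markers of the cell types named above, some were at or near 0 and others were present. Without Stmn2, the summed level of 9 neural markers was 71.6 to 83.4 CPM in serum and 21.6 to 51.5 CPM in 2i, with Dcx at 0 in all libraries and Neurog2 and Snap25 at no more than 0.0526 and 0.235 CPM. Tubb3, at 44.6 to 47.1 CPM in serum and 6.23 to 36.5 CPM in 2i, and Sox1, at 12.5 to 27.8 and 7.91 to 11 CPM, made up most of that sum. In the wider neural list the neurofilament genes Nefl and Nefm were higher in every 2i library than in any serum library, at 39.8 to 141 against 1.28 to 2.45 CPM and 3.73 to 132 against 0.154 to 0.463 CPM, and Gad2 reached 7.11 CPM in 2i against at most 0.0463 CPM in serum. Of 6 melanocyte markers Tyr and Dct were at 0 throughout and Tyrp1 and Oca2 reached at most 0.0595 and 0.0473 CPM, while Mitf, which other cells also express, ranged from 17 to 20.7 CPM in serum and from 57.8 to 64.4 CPM in 2i. Among 6 oligodendrocyte and Schwann cell markers Olig2 and Sox10 were at most 0.0595 and 0.0532 CPM in 2i, and the summed level was 4.72 to 5.53 CPM in serum and 3.03 to 6.07 CPM in 2i. Of the 6, 4 stayed under 1 CPM in every library and the others did not. Among 4 of them tested with edgeR, Mobp was 5.26-fold (adjusted p = 1.91e-07) lower in long than in first 2i, and the others did not pass. Macrophage markers, 7 genes led by Cd68, summed to 20.4 to 23.2 CPM in serum and 13.5 to 31.5 CPM in 2i, while Csf1r, Ptprc, Emr1, Aif1 and Vcam1 stayed under 1 CPM in every library. Markers of fibroblasts summed to 23.2 to 46.6 CPM in serum and 8.36 to 19.1 CPM in 2i, those of primitive endoderm to 37.8 to 51.6 and 5.36 to 19.6 CPM and those of blood and endothelium to 59.5 to 82.4 and 76.9 to 131 CPM. Higher sums in 2i were found for trophoblast markers, 84.4 to 135 against 53 to 75.9 CPM, with Tfap2c the most abundant of them, and for germ cell markers, 311 to 462 against 129 to 170.1 CPM, with Kit the most abundant. The part of these shifts in the levels of the 29 genes was not tested. In bulk RNA, fewer expressing cells and less RNA per expressing cell cannot be told apart.

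The promoters of the set were not of 1 kind. RefSeq promoter windows of 300 bases (250 before and 50 after the annotated start, build GRCm38.p6) were at hand for 21 of the 29 genes, 24 windows in all. None was matched for Car8, Grid1, Il34, Mbp, Rab38, S1pr1, Stmn2 and Tbx15. In 14 of the 24 (58.3%) the CpG dinucleotide reached an observed-to-expected ratio of 0.6, against 66.3% of the 14184 windows of genes tested. The median ratio was 0.711 in the set and 0.734 in those windows. The 250 bases before the start of Slit2 (chr5:47982905-47983154, plus strand) and Rasgrp1 (chr2:117342878-117343127, minus strand) are shown as CpG-rich examples, with 25 and 21 CpG. Those of Aspa (chr11:73324638-73324887, minus strand) and of the first start of Trpm1 (chr7:64153585-64153834, plus strand) are CpG-poor examples, with 2 and 1. Capitals mark CpG dinucleotides, and the 4 were picked after their CpG content was seen.
Slit2: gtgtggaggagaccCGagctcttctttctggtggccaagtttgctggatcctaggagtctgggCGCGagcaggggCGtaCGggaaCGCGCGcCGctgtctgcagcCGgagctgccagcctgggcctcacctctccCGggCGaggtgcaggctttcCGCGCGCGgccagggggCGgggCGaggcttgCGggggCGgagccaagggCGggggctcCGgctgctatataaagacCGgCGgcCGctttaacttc
Rasgrp1: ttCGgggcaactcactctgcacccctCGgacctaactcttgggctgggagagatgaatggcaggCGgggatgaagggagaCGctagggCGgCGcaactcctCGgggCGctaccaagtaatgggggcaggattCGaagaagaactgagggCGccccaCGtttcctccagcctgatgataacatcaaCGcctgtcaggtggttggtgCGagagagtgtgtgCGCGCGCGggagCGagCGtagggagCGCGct
Aspa: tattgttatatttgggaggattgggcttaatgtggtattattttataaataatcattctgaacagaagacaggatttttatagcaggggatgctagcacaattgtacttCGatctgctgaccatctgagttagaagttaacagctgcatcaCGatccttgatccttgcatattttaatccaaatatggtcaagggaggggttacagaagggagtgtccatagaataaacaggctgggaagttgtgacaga
Trpm1: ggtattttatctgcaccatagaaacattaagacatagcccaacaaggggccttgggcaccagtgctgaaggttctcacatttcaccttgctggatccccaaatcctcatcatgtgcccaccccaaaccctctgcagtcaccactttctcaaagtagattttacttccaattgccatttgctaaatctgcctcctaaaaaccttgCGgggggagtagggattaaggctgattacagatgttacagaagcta
Slit2 and Rasgrp1 thus carry dense CpG up to their starts, whereas the stretches before Aspa and Trpm1 are nearly free of it, although all 4 genes met the same rule. Each window was searched on both strands for 3 motifs, none of which contains another. CTTTGAT, a core of TCF/LEF sites, was in 0 of 24 windows of the set and in 2.49% of windows of genes tested. GCGTG, the core bound by the aryl hydrocarbon receptor, was in 6 of 24 (25.0%) against 49.7%, and the E-box CACGTG in 1 of 24 against 9.93%. The 1 E-box lay before the second start of Trpm1, which also held GCGTG. A match is a description of the letters, and its absence says only that these letters are not in this window.

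Car8, Tbx15, Slit2 and Spic stood furthest apart between media. Car8, a carbonic anhydrase-related protein that binds the inositol trisphosphate receptor, was read at 47.8 and 46.4 CPM in first 2i, 24.3 and 23.4 in long 2i, 20.8 and 20.6 in second 2i, 0.331 and 0.206 in serum and 0.216 and 0.278 in serum return. Its lowest 2i library was 62.3 times its highest serum library. The ratio was 39.2 for Tbx15, 35.7 for Slit2 and 31.9 for Spic, and its median over the 29 genes was 13.8. At the lower edge, Dmgdh, Ctnnd2 and Rab38 were just inside at 8.17, 8.38 and 8.46, and Tpbg, Cyp7b1 and Dcstamp just outside at 7.84, 7.54 and 7.44. Ctnnd2, Rasgrp1 and Epha7 had the lowest 2i minima, 5.43, 5.63 and 6.55 CPM, and Osm, Ntrk3 and Gsc fell just short of the level required at 4.85, 4.76 and 3.81 CPM. The ratio of group means ranged from 17.7 to 176 between first 2i and serum and from 8.93 to 100.4 between second 2i and serum return. In serum the genes were near the limit of counting: the highest of the 4 libraries had a median of 0.880 CPM over the set, and the summed count of the serum group ranged from 3 for Gm13128 to 260 for Stmn2 with a median of 20.

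**Figure D1:**
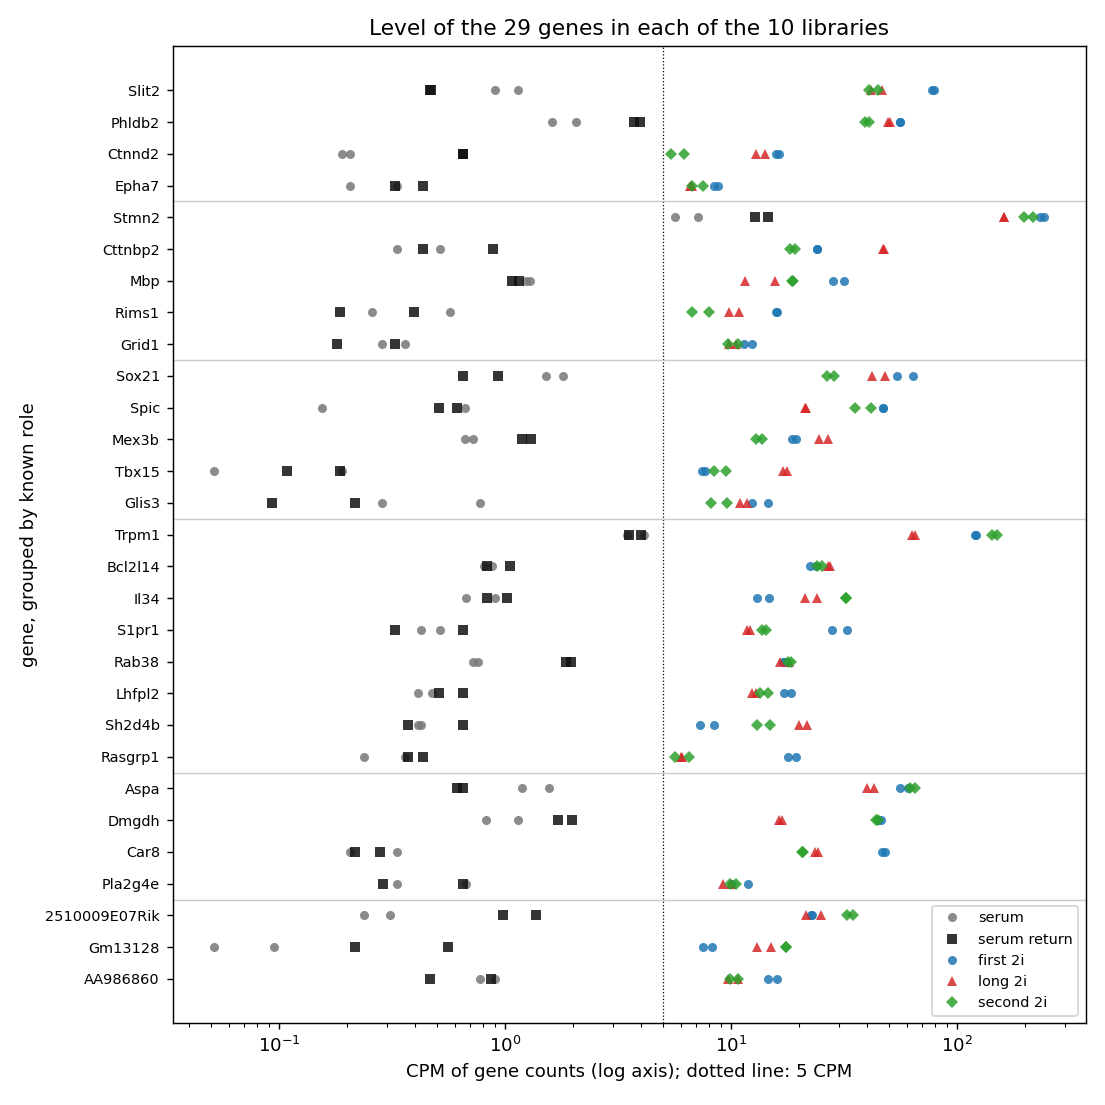
Level of each of the 29 genes (rows, grouped by known role) in the 10 libraries as CPM on a log axis. Each point is 1 library, colour and shape give the culture group, and the dotted line marks 5 CPM. All 2i points lie to the right of the line, and serum points reach past it only for Stmn2, at 5.61 to 14.5 CPM.

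Within 2i the set was not held at 1 level. For 18 of the 29 genes first 2i had the highest mean of the 3 phases, for 6 second 2i and for 5 long 2i, and the highest phase was 1.06 to 3.07 times the lowest (median 2.14). The same values were not taken over all genes, where differences between phases were also common, as the backgrounds below show. By edgeR's quasi-likelihood test, with p-values adjusted by Benjamini-Hochberg over 14220 genes, 15 of the 29 genes were lower in long 2i than in first 2i, where 30.8% of all genes tested were lower, and 7 were higher, where 30.4% were. The median log2 fold change was -0.37 over the set and 0.00 over all genes tested. In second 2i 16 genes were lower than in first 2i (background 19.6%) and 5 higher (background 18.1%), with medians of -0.27 in the set and 0.00 in all genes. Between second and long 2i the set split evenly, 9 higher (background 28.1%) and 8 lower (background 28.4%), with medians of 0.04 and -0.01. Both libraries of long 2i lay above both of first 2i for 7 genes (background 39.6%) and below for 20 (background 39.3%). Second 2i lay wholly above first 2i for 9 (background 33%) and below for 18 (background 36.3%), and wholly above long 2i for 12 (background 36.9%) and below for 11 (background 40.1%). All 29 genes passed the low-count filter. The 3 comparisons share libraries, so their counts are given side by side only, and the rule bounded every 2i library from below, which limits how far a phase could fall.

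**Figure D2:**
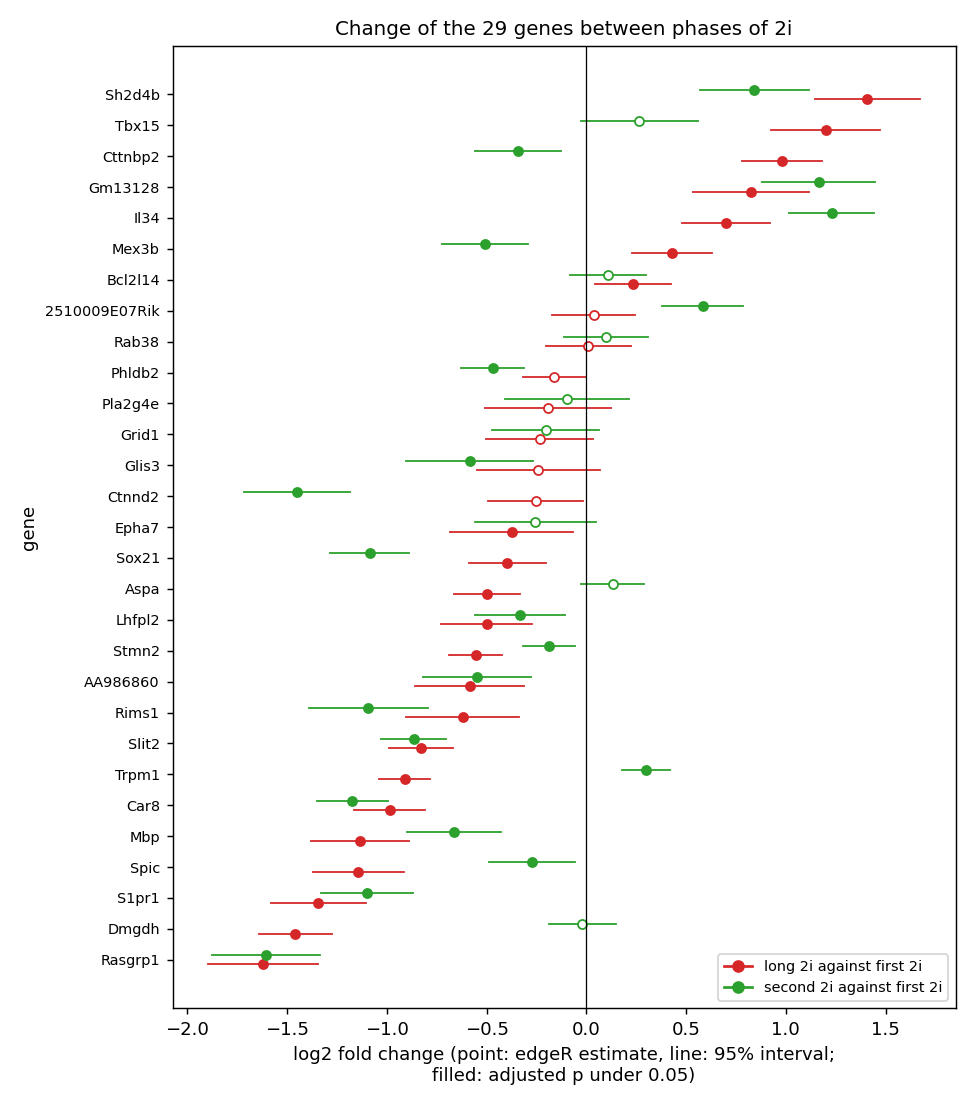
The log2 fold change of each of the 29 genes in long 2i (red) and second 2i (green) against first 2i, ordered by the former, with 95% intervals. Filled points passed at an adjusted p under 0.05. Rasgrp1 is lowest in both comparisons at -1.62 and -1.61, and Sh2d4b highest in long 2i at 1.41.

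The 4 guidance and adhesion genes all had their highest mean in first 2i, a share not counted over all genes. Against first 2i, 2 were called lower in long 2i (background 30.8%) and 3 in second 2i (background 19.6%). Slit2, a secreted ligand that repels axons through Robo receptors, was read at 78.4 and 77.5 CPM in first 2i, 46.5 and 41.5 in long 2i, 44.3 and 40.5 in second 2i, 0.898 and 1.13 in serum and 0.468 and 0.463 in serum return. Both later phases lay below first 2i with no overlap of libraries. It fell 1.78-fold (log2 fold change -0.83 ± 0.078 SE, adjusted p = 1.27e-08) in long 2i and 1.82-fold (log2 fold change -0.87 ± 0.077 SE, adjusted p = 3.37e-08) in second 2i. Ctnnd2, or δ-catenin, which binds cadherins at synapses and other junctions, was read at 15.8 and 16.2 CPM in first 2i, 14 and 12.8 in long 2i, 5.43 and 6.15 in second 2i, 0.189 and 0.206 in serum and 0.648 and 0.648 in serum return. The second 2i libraries stood well below those of the other 2i phases. Ctnnd2 was 2.73-fold (log2 fold change -1.45 ± 0.13 SE, adjusted p = 2.63e-08) lower in second 2i than in first 2i and 2.29-fold (log2 fold change -1.20 ± 0.13 SE, adjusted p = 1.65e-07) lower than in long 2i, while long and first 2i did not differ by the test (log2 fold change -0.25, 95% interval -0.49 to -0.017, adjusted p = 0.0596). Phldb2, which anchors microtubules at the cell cortex, ranged from 38.9 to 55.9 CPM in 2i and was 1.39-fold (log2 fold change -0.47 ± 0.076 SE, adjusted p = 6.54e-05) lower in second than in first 2i. Epha7, a receptor for ephrin-A ligands, ranged from 6.55 to 8.70 CPM and fell 1.3-fold (log2 fold change -0.37 ± 0.15 SE, adjusted p = 0.0343) in long 2i. That call was lost in several alternatives, with adjusted p = 0.121 without replicate 1 of first 2i, 0.0705 without replicate 2 of first 2i, 0.0844 without replicate 1 of long 2i, 0.128 without replicate 2 of long 2i and 0.204 with DESeq2 (range over 9 alternatives 0.0279 to 0.204).

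Of the 5 genes of the neuronal cytoskeleton, synapse and myelin, 3 fell (background 30.8%) and 1 rose (background 30.4%) in long 2i. In second 2i 4 were lower than in first 2i (background 19.6%) and none higher (background 18.1%). Stmn2, a stathmin that destabilises microtubules in growing neurites, was read at 242 and 231 CPM in first 2i, 161 and 161 in long 2i, 215 and 196 in second 2i, 7.14 and 5.61 in serum and 12.7 and 14.5 in serum return. It fell 1.47-fold (log2 fold change -0.56 ± 0.064 SE, adjusted p = 2.58e-07) in long 2i. In second 2i it lay 1.14-fold (log2 fold change -0.19 ± 0.063 SE, adjusted p = 0.0248) below first 2i, a call lost at adjusted p = 0.17 without replicate 1 of first 2i and 0.266 without replicate 2 of second 2i (range over 9 alternatives 4.14e-05 to 0.266). Cttnbp2, a cortactin-binding protein of dendritic spines, went the other way in long 2i, where it was read highest: 23.9 and 23.8 CPM in first 2i, 47.5 and 47 in long 2i, 19.2 and 18.2 in second 2i, 0.331 and 0.515 in serum and 0.432 and 0.88 in serum return. It rose 1.97-fold (log2 fold change 0.98 ± 0.096 SE, adjusted p = 2.45e-08) in long 2i and was 2.5-fold (log2 fold change -1.32 ± 0.1 SE, adjusted p = 5.89e-10) lower in second than in long 2i. The smaller difference of second from first 2i, 1.27-fold (adjusted p = 0.0131) lower, had adjusted p = 0.06 without replicate 1 of first 2i and 0.099 without replicate 2 of second 2i (range over 9 alternatives 0.000958 to 0.099). Rims1, a scaffold of the presynaptic active zone, was read at 15.9 and 15.7 CPM in first 2i, 9.76 and 10.8 in long 2i and 7.93 and 6.73 in second 2i, in steps that did not overlap. It fell 1.54-fold (log2 fold change -0.62 ± 0.14 SE, adjusted p = 0.000539) in long 2i and 2.13-fold (log2 fold change -1.09 ± 0.14 SE, adjusted p = 5.15e-06) in second 2i. Mbp, the myelin basic protein, fell 2.2-fold (log2 fold change -1.13 ± 0.12 SE, adjusted p = 5.22e-08) in long 2i, from 28.1 and 31.6 to 11.5 and 15.6 CPM, and was read at 18.7 and 18.6 CPM in second 2i. Grid1, a δ-type glutamate receptor, ranged from 9.67 to 12.3 CPM over the 2i libraries and passed in none of the 3 comparisons. Its difference between long and first 2i was estimated at log2 fold change -0.23, 95% interval -0.50 to 0.036, adjusted p = 0.124.

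Of the 5 regulators of transcription and RNA, 4 were lower in second than in first 2i (background 19.6%), and long 2i moved them in both directions. Sox21, a SoxB factor that opposes Sox2 targets in neural progenitors and is known from early embryo cells, was read at 54.3 and 63.7 CPM in first 2i, 41.8 and 47.9 in long 2i, 26.6 and 28.4 in second 2i, 1.51 and 1.8 in serum and 0.648 and 0.926 in serum return. Each phase formed its own level. It fell 1.32-fold (log2 fold change -0.40 ± 0.092 SE, adjusted p = 0.000877) in long 2i and 2.12-fold (log2 fold change -1.09 ± 0.096 SE, adjusted p = 2.64e-08) in second 2i. Spic, an ETS factor known for macrophages that recycle iron and as a marker of naive ES cells, was read at 47.1 and 46.8 CPM in first 2i, 21.1 and 21.4 in long 2i, 41.7 and 35.4 in second 2i, 0.662 and 0.154 in serum and 0.612 and 0.51 in serum return. Long 2i was the low phase for Spic. It fell 2.21-fold (log2 fold change -1.14 ± 0.11 SE, adjusted p = 1.97e-08) there and was 1.83-fold (log2 fold change 0.87 ± 0.11 SE, adjusted p = 1.34e-06) higher in second 2i, while its 1.21-fold (adjusted p = 0.043) lower level in second than in first 2i was lost at adjusted p = 0.14 without replicate 1 of first 2i, 0.12 without replicate 2 of first 2i, 0.377 without replicate 2 of second 2i and 0.102 with DESeq2 (range over 9 alternatives 0.00159 to 0.377). Tbx15, a T-box factor of limb and skeletal development, was instead highest in long 2i: 7.62 and 7.4 CPM in first 2i, 17 and 17.6 in long 2i, 9.5 and 8.41 in second 2i, 0.189 and 0.0515 in serum and 0.108 and 0.185 in serum return. It rose 2.3-fold (log2 fold change 1.20 ± 0.13 SE, adjusted p = 1.16e-07) in long 2i and was 1.91-fold (log2 fold change -0.93 ± 0.13 SE, adjusted p = 3.84e-06) lower in second 2i, which itself did not pass against first 2i (log2 fold change 0.27, 95% interval -0.027 to 0.56, adjusted p = 0.145). Mex3b, an RNA-binding protein with KH domains, also peaked in long 2i. It was read at 19.4 and 18.6 CPM in first 2i, rose 1.35-fold (log2 fold change 0.43 ± 0.096 SE, adjusted p = 0.000647) to 24.5 and 26.7 CPM in long 2i and stood at 13.6 and 12.8 CPM in second 2i, 1.42-fold (log2 fold change -0.51 ± 0.10 SE, adjusted p = 0.000614) below first 2i. Glis3, a Krüppel-like zinc finger factor of pancreas and kidney, ranged from 8.09 to 14.5 CPM and was 1.5-fold (log2 fold change -0.59 ± 0.15 SE, adjusted p = 0.00467) lower in second than in first 2i, a call lost at adjusted p = 0.0629 without replicate 2 of first 2i and 0.0627 without replicate 1 of second 2i (range over 9 alternatives 7.15e-05 to 0.0629).

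Among the 8 genes of signalling, channels and traffic, Rasgrp1 and S1pr1 lost the most from first to later 2i, and Il34 and Sh2d4b gained. Rasgrp1 loads Ras with GTP in response to diacylglycerol and so acts upstream of the kinases that 2i inhibits. It was read at 17.9 and 19.3 CPM in first 2i, 6.07 and 6.02 in long 2i, 6.46 and 5.63 in second 2i, 0.236 and 0.36 in serum and 0.432 and 0.371 in serum return. Both later phases had about the same level, far below first 2i. Rasgrp1 fell 3.08-fold (log2 fold change -1.62 ± 0.13 SE, adjusted p = 1.58e-09) in long 2i and 3.04-fold (log2 fold change -1.61 ± 0.13 SE, adjusted p = 8.57e-09) in second 2i, the largest decrease of the set in each of those comparisons. S1pr1, a receptor for sphingosine 1-phosphate known from lymphocyte exit and vessels, was read at 28 and 32.5 CPM in first 2i against 12.1 and 11.7 in long and 14.2 and 13.7 in second 2i. Its decreases were 2.54-fold (log2 fold change -1.34 ± 0.11 SE, adjusted p = 2.99e-09) and 2.14-fold (log2 fold change -1.10 ± 0.11 SE, adjusted p = 1.89e-07). Il34, a cytokine that activates the Csf1r receptor (at most 0.216 CPM here), was read at 14.7 and 13 CPM in first 2i, 21.1 and 23.9 in long 2i, 32.2 and 32.2 in second 2i, 0.898 and 0.669 in serum and 0.828 and 1.02 in serum return. The 3 phases rose in steps without overlap. It was 1.62-fold (log2 fold change 0.70 ± 0.11 SE, adjusted p = 9.05e-06) higher in long and 2.35-fold (log2 fold change 1.23 ± 0.10 SE, adjusted p = 1.2e-08) higher in second than in first 2i, and 1.44-fold (log2 fold change 0.53 ± 0.099 SE, adjusted p = 0.000117) higher in second than in long 2i. Ptprz1 and Sdc1, other receptors of Il34 looked at after the set was known, passed the low-count filter. In second 2i they were 2.26-fold (adjusted p = 2.46e-05) and 1.61-fold (adjusted p = 1.29e-05) lower than in first 2i. In long 2i Ptprz1 was 2.05-fold (adjusted p = 2.14e-06) higher than in first 2i, and Sdc1 did not pass (adjusted p = 0.155). Sh2d4b, an adaptor with an SH2 domain, was read at 7.24 and 8.38 CPM in first 2i, 20.0 and 21.5 in long 2i and 14.8 and 13 in second 2i. It rose 2.65-fold (log2 fold change 1.41 ± 0.13 SE, adjusted p = 6.83e-09) in long 2i, the largest increase of the set there.

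Trpm1, a cation channel of retinal bipolar cells and melanocytes, dipped in long 2i only among the 2i phases: 119.6 and 120.4 CPM in first 2i, 64.9 and 63 in long 2i, 149.6 and 143 in second 2i, 3.45 and 4.12 in serum and 4 and 3.52 in serum return. It fell 1.88-fold (log2 fold change -0.91 ± 0.062 SE, adjusted p = 1.02e-10) in long 2i, was 2.31-fold (log2 fold change 1.21 ± 0.061 SE, adjusted p = 1.48e-12) higher in second than in long 2i and ended 1.23-fold (log2 fold change 0.30 ± 0.058 SE, adjusted p = 0.000449) above first 2i. Rab38, a small GTPase that sorts cargo to melanosomes, was the steadiest gene of the set within 2i, at 17.2 and 16.9 CPM in first 2i, 18 and 16.5 in long 2i, 18.4 and 17.8 in second 2i, 0.756 and 0.721 in serum and 1.94 and 1.85 in serum return. None of its 3 comparisons within 2i passed, and the difference of long from first 2i was estimated at log2 fold change 0.01, 95% interval -0.20 to 0.22, adjusted p = 0.939. Bcl2l14, a protein of the Bcl-2 family, ranged from 22.3 to 27.2 CPM in 2i. Its 1.18-fold (adjusted p = 0.0314) higher level in long than in first 2i had adjusted p = 0.0561 without replicate 1 of first 2i, 0.182 without replicate 2 of first 2i, 0.124 without replicate 1 of long 2i, 0.077 without replicate 2 of long 2i, 0.0591 with no low-count filter and 0.172 with DESeq2 (range over 9 alternatives 0.0156 to 0.182). Lhfpl2, a tetraspan membrane protein, ranged from 12.3 to 18.4 CPM and fell 1.41-fold (log2 fold change -0.50 ± 0.11 SE, adjusted p = 0.000539) in long 2i.

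Enzymes and related proteins differed in whether second 2i regained the level of first 2i. Dmgdh, the mitochondrial dimethylglycine dehydrogenase of choline breakdown, was read at 44.4 and 46 CPM in first 2i, 16.2 and 16.7 in long 2i, 44.7 and 43.5 in second 2i, 1.13 and 0.824 in serum and 1.98 and 1.71 in serum return. It fell 2.75-fold (log2 fold change -1.46 ± 0.089 SE, adjusted p = 1.95e-11) in long 2i and was 2.71-fold (log2 fold change 1.44 ± 0.089 SE, adjusted p = 3.14e-11) higher in second 2i. Second and first 2i did not differ by the test (log2 fold change -0.021, 95% interval -0.19 to 0.15, adjusted p = 0.864). Aspa, which cleaves N-acetylaspartate to acetate and aspartate, was read at 60.7 and 55.8 CPM in first 2i, 42.7 and 39.99 in long 2i, 65.1 and 61.5 in second 2i, 1.56 and 1.18 in serum and 0.612 and 0.648 in serum return. Long 2i was again the low phase. Aspa fell 1.41-fold (log2 fold change -0.50 ± 0.078 SE, adjusted p = 1.46e-05) there and was 1.55-fold (log2 fold change 0.63 ± 0.079 SE, adjusted p = 9.4e-07) higher in second than in long 2i. Car8, whose libraries are given above, instead stood near its long 2i level in second 2i. It fell 1.98-fold (log2 fold change -0.99 ± 0.085 SE, adjusted p = 3.74e-09) in long 2i and 2.25-fold (log2 fold change -1.17 ± 0.086 SE, adjusted p = 1.9e-09) in second 2i. Pla2g4e, a cytosolic phospholipase A2, ranged from 9.22 to 11.8 CPM and passed in none of the comparisons within 2i (long against first 2i: log2 fold change -0.19, 95% interval -0.51 to 0.12, adjusted p = 0.281).

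The 3 genes that the files list by model or clone names differed in direction between long and first 2i. Of them 1 was called higher (background 30.4%) and 1 lower (background 30.8%). Gm13128, listed by RefSeq as the PRAME family gene Pramel30, was read at 7.48 and 8.24 CPM in first 2i, 14.9 and 13 in long 2i, 17.4 and 17.5 in second 2i, 0.0945 and 0.0515 in serum and 0.216 and 0.556 in serum return. It rose 1.77-fold (log2 fold change 0.82 ± 0.14 SE, adjusted p = 3.3e-05) in long 2i and was 2.24-fold (log2 fold change 1.16 ± 0.14 SE, adjusted p = 1.21e-06) higher in second than in first 2i. PRAME family genes have many similar copies, and reads that aligned to more than 1 place were not counted for genes, so its values are uncertain. 2510009E07Rik was 1.5-fold (log2 fold change 0.58 ± 0.097 SE, adjusted p = 8.66e-05) higher in second than in first 2i, at 34.4 and 32.6 against 22.8 and 22.4 CPM. AA986860 fell 1.5-fold (log2 fold change -0.58 ± 0.13 SE, adjusted p = 0.00062) in long 2i, from 15.9 and 14.5 to 10.7 and 9.64 CPM, and stood at 9.88 and 10.7 CPM in second 2i.

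**Figure D3:**
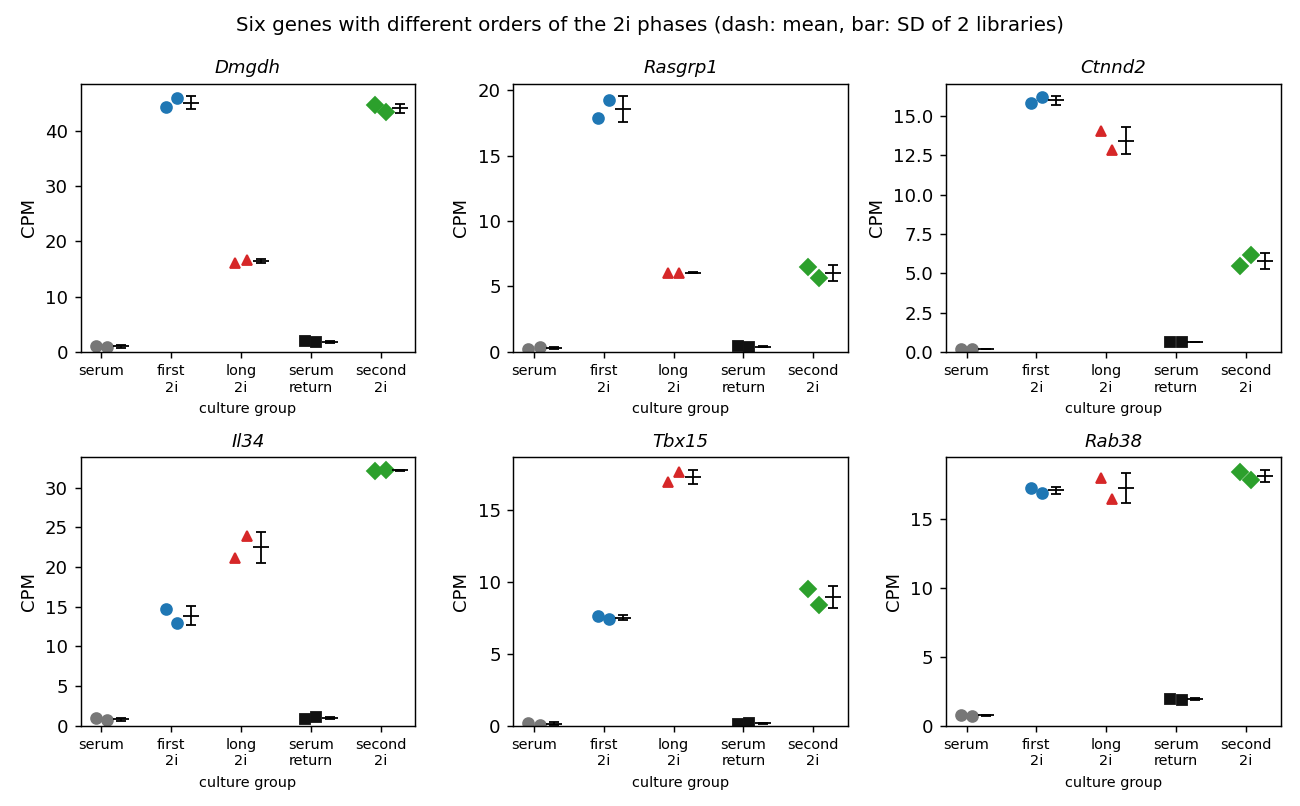
CPM of 6 of the genes in each library by culture group, with the group mean (dash) and SD of 2 libraries (bar) and the axis starting at 0. Among the 2i phases, Dmgdh dips in long 2i only and Rasgrp1 is lower in both later phases than in first 2i. Ctnnd2 is lowest in second 2i, Il34 climbs through the phases, Tbx15 peaks in long 2i and Rab38 lies between 16.5 and 18.4 CPM throughout 2i.

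Whether cells that had been in 2i returned to the original level in serum was asked with serum return against serum. Stmn2, Phldb2, Rab38 and 2510009E07Rik were above the original culture. The labels give no passage number for that culture, so a past in 2i and time in culture cannot be told apart. Stmn2 was read at 12.7 and 14.5 CPM against 7.14 and 5.61 CPM, and Phldb2 at 3.71 and 3.94 against 1.61 and 2.06 CPM. They were 2.09-fold (log2 fold change 1.06 ± 0.11 SE, adjusted p = 1.08e-06) and 2.06-fold (log2 fold change 1.04 ± 0.17 SE, adjusted p = 9.56e-05) higher. Rab38 was read at 1.94 and 1.85 against 0.756 and 0.721 CPM, a 2.53-fold (log2 fold change 1.34 ± 0.25 SE, adjusted p = 0.000397) difference, and 2510009E07Rik at 1.37 and 0.973 against 0.236 and 0.309 CPM, a 4.27-fold (log2 fold change 2.10 ± 0.37 SE, adjusted p = 0.00029) difference. For these 4 genes each serum return library lay above both original serum libraries, and the call held in all 9 alternatives. Their serum return levels remained below every 2i library, which the rule required.

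In all, 8 of the 29 genes were higher in serum return than in serum (background 16.5%) and 4 were lower (background 14.5%). Libraries of serum return lay wholly above those of serum for 10 genes (background 35.8%) and below for 5 (background 28.6%). The median log2 fold change was 0.19 in the set and 0.02 over all genes tested. The rule capped every serum library, those of serum return included, which limits how far a gene of the set could rise there. The low-count filter counted the 2i libraries too. With only the serum groups fitted, 9 of the 29 genes, Glis3 and Gm13128 among them, did not pass it. Of the other 20, 6 were higher and 3 lower, and the shares over all genes in that fit were not taken. The serum return group held 7 to 666 counts per gene. Over genes in general its libraries differed more from each other than those of any other group, with a chi-square per degree of freedom of 23.8 against 3.33 to 4.59. Over the 29 genes the higher library was at the median 1.27 times the lower in serum return and 1.28 times in serum. The largest such ratio was 2.57 in serum return and 4.28 in serum. In the same comparison 21 of 26 germline genes, 5 of 6 germ cell markers, 4 of 6 tested primitive endoderm markers, 3 of 6 tested fibroblast markers and 3 of 3 tested markers of 2-cell-like cells were higher and none lower. The germline and germ cell lists overlap, as do those of fibroblasts and primitive endoderm. Of 17 ERK targets 1 was higher and 5 lower, and of 19 Wnt targets 2 and 4. Of 13 naive pluripotency genes 3 were higher and 3 lower, and of 14 imprinted genes 3 and 2. Of 12 neural genes 3 were higher and none lower, and of 8 aryl hydrocarbon receptor genes 1 and 1. The part of these lists in the levels of the 29 genes was not tested. Besides the 4 named above, Ctnnd2, Dmgdh, Mex3b and Gm13128 were higher. Ctnnd2 rose 3.18-fold (adjusted p = 0.00761) to 0.648 CPM in each library, Dmgdh 1.86-fold (adjusted p = 0.00515) to 1.98 and 1.71 CPM and Mex3b 1.76-fold (adjusted p = 0.0361) to 1.19 and 1.3 CPM. For Gm13128 18 counts in serum return stood against 3 in serum, a ratio of 4.93 with an exact 95% counting interval of 1.44 to 26.1. Aspa, Slit2, Sox21 and Glis3 were lower after the return. Aspa went from 1.56 and 1.18 to 0.612 and 0.648 CPM and fell 2.21-fold (adjusted p = 0.00343), Slit2 from 0.898 and 1.13 to 0.468 and 0.463 CPM, a decrease of 2.18-fold (adjusted p = 0.0106), and Sox21 from 1.51 and 1.8 to 0.648 and 0.926 CPM, a decrease of 2.16-fold (adjusted p = 0.00592). Glis3 went from 0.284 and 0.772 to 0.216 and 0.0926 CPM and fell 3.16-fold (adjusted p = 0.0397).

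Each of these 8 further calls was lost on leaving out at least 1 library. Without replicate 1 of serum 5 genes were higher, without replicate 2 of serum 5 were higher and 1 lower, and without replicate 1 of serum return 1 was lower. Ctnnd2 had adjusted p = 0.0559 without replicate 1 of serum (range over 9 alternatives 0.00539 to 0.0559), Dmgdh adjusted p = 0.0996 without replicate 2 of serum and 0.0831 without replicate 1 of serum return (range over 9 alternatives 0.00238 to 0.0996) and Mex3b adjusted p = 0.159 without replicate 1 of serum, 0.102 without replicate 2 of serum, 0.0916 without replicate 1 of serum return, 0.12 without replicate 2 of serum return, 0.0769 with DESeq2 and 0.0795 with only the groups compared (range over 9 alternatives 0.0291 to 0.159). For Gm13128 the values were adjusted p = 0.0701 without replicate 1 of serum, 0.142 without replicate 2 of serum, 0.26 without replicate 2 of serum return and 0.0506 with DESeq2 (range over 8 alternatives 0.00998 to 0.26). Aspa had adjusted p = 0.0779 without replicate 1 of serum (range over 9 alternatives 0.000979 to 0.0779), Slit2 adjusted p = 0.119 without replicate 2 of serum and 0.0793 without replicate 1 of serum return (range over 9 alternatives 0.00622 to 0.119) and Sox21 adjusted p = 0.0572 without replicate 2 of serum and 0.103 without replicate 1 of serum return (range over 9 alternatives 0.00048 to 0.103). Glis3 had adjusted p = 0.502 without replicate 2 of serum, 0.0644 without replicate 1 of serum return and 0.177 without replicate 2 of serum return (range over 8 alternatives 0.0106 to 0.502). The size of the change of Glis3 also moved, from a log2 fold change of -1.66 to -0.80 without replicate 2 of serum and -2.41 without replicate 1 of serum return, and that of Gm13128 from 2.20 to 1.45 without replicate 2 of serum return.

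**Figure D4:**
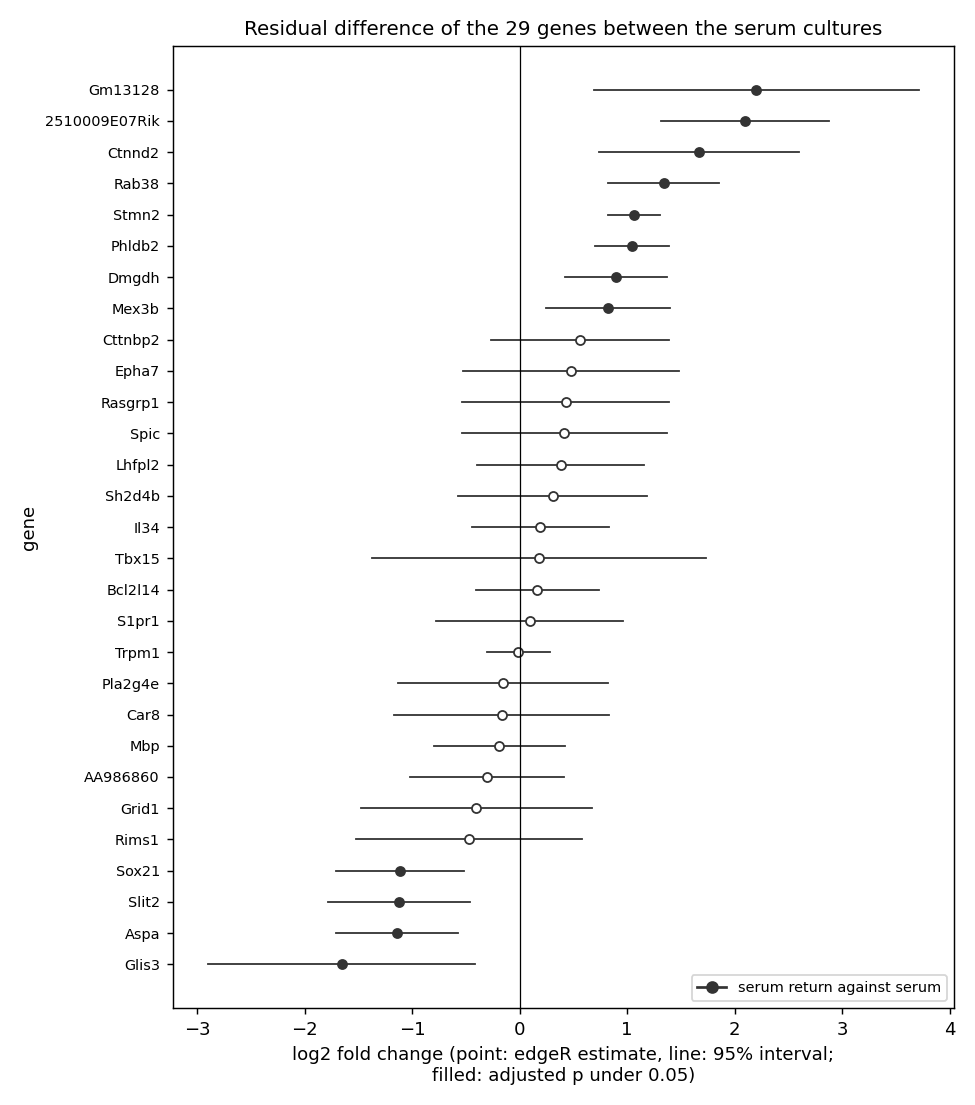
The log2 fold change of each of the 29 genes in serum return against the original serum culture, with 95% intervals, ordered by size. Filled points passed at an adjusted p under 0.05. Gm13128, at 2.20, is highest and Glis3, at -1.66, lowest, with wide intervals for genes of few counts.

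Genes next to the set on the chromosome were examined because the rule did not use them. RefSeq order gave 57 protein-coding neighbours, of which none belonged to the set and 45 passed the low-count filter. Of these 45, 13 (28.9%) had a mean over the 2i libraries at least 2 times that over the serum libraries, on a scale of CPM plus 0.1, against 10.3% of all 14220 genes. Only Plcxd2, beside Phldb2, was at least 2 times lower (2.22%, against 11.9%). The median log2 ratio was 0.50 for the neighbours and 0.04 for all genes. The medium contrast was given no test here. The low-count filter counted every group, so a gene could pass it through its 2i libraries alone. Galr1, beside Mbp, passed at 0 CPM in every serum library and 0.326 to 1.17 CPM in 2i. Kcnq5 and Trpv3 reached at most 0.108 and 0.189 CPM in serum. All 14220 genes passed the same filter, and its part in the share of the neighbours was not tested. Bhmt2, a homocysteine methyltransferase related to Bhmt, which makes the dimethylglycine that Dmgdh oxidises, was the neighbour with the largest ratio, at 7.97 to 22.5 CPM over the 2i libraries and 0.0515 to 1.62 CPM over the serum libraries. Slc1a1, a glutamate transporter beside Glis3, was read at 5.81 to 16.1 CPM over the 2i libraries and 0.36 to 1.98 CPM over the serum libraries. Etv6, an ETS repressor beside Bcl2l14, was read at 64.3 to 87.5 CPM over the 2i libraries and 29.6 to 32.5 CPM over the serum libraries, and Mtss1l, beside Il34, at 61.5 to 77.7 CPM over the 2i libraries and 22.2 to 25.4 CPM over the serum libraries. Spata22, a meiotic gene that overlaps Aspa in the annotation, was read at 1.05 to 2.88 CPM over the 2i libraries and 0.309 to 0.973 CPM over the serum libraries, and with the strand setting of the counting unknown the reads of such pairs cannot be told apart.

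**Figure D5:**
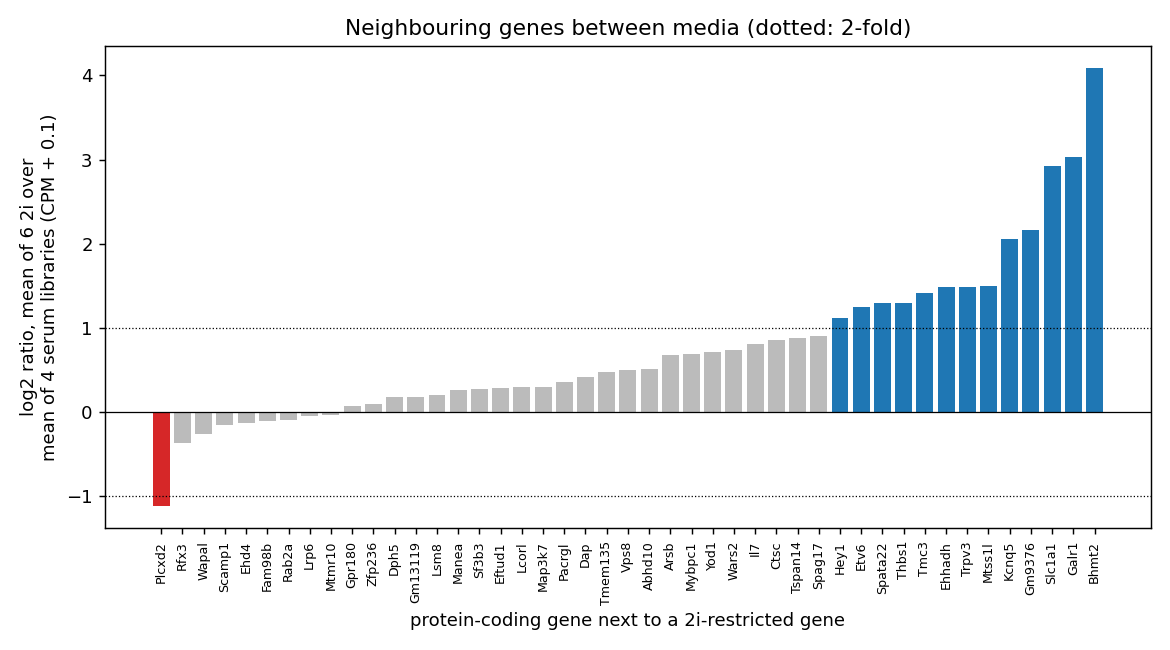
The log2 ratio of the mean over 6 2i libraries to the mean over 4 serum libraries (CPM plus 0.1) for the 45 neighbouring protein-coding genes that passed the low-count filter, in order of size. Bars past the dotted 2-fold lines are coloured, 13 above and 1 below, and Bhmt2 beside Dmgdh is highest at 4.09.

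Bhmt2 and Bhmt were lower in long than in first 2i, as Dmgdh was. These genes were chosen after the neighbours had been seen. Bhmt2 fell 2.71-fold (adjusted p = 2.63e-08) from first to long 2i and was 2.77-fold (adjusted p = 2.57e-08) higher in second than in long 2i. Bhmt, at 0.0473 to 0.36 CPM in serum and 2.24 to 5.74 CPM in 2i, fell 2.15-fold (adjusted p = 0.000176) in long 2i. It was 1.51-fold (adjusted p = 0.0271) lower in second than in first 2i, and its difference between second and long 2i did not pass (log2 fold change 0.51, adjusted p = 0.0671), unlike the return of Dmgdh. Chdh and Sardh, the choline dehydrogenase before and the sarcosine dehydrogenase after these steps, reached at most 0.188 and 0.142 CPM in any library.

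Lists of genes for the pathways that 2i acts on, written with the design, give the setting of these phase differences. The only listed gene that belonged to the set was Stmn2, in the neural list. Between long and first 2i (background 30.4% higher and 30.8% lower), 14 of 17 tested ERK pathway targets rose and 2 fell (median log2 fold change 1.14), 10 of 19 Wnt targets rose and 2 fell (median 0.64) and 11 of 13 naive pluripotency genes fell and none rose (median -0.52). Of 12 neural genes 5 rose and 4 fell (median 0.25), of 8 aryl hydrocarbon receptor genes 3 rose and 3 fell (median -0.04), of 26 germline genes 10 rose and 11 fell (median -0.23) and of 14 paternally expressed imprinted genes 7 rose and 3 fell (median 1.21). Between second and first 2i (background 18.1% higher and 19.6% lower) 8 naive pluripotency genes were higher and 1 lower, 11 ERK targets higher and none lower, 7 Wnt targets higher and 1 lower, 3 neural genes higher and 2 lower, 1 aryl hydrocarbon receptor gene higher and 5 lower, 8 germline genes higher and 7 lower, and 2 imprinted genes higher and 3 lower. Between second and long 2i (background 28.1% higher and 28.4% lower) all 13 tested naive pluripotency genes rose, with a median of 0.69. In that comparison 3 ERK targets were higher and 9 lower, 3 Wnt targets higher and 5 lower, 4 neural genes higher and 6 lower, 3 aryl hydrocarbon receptor genes higher and 5 lower, 8 germline genes higher and 9 lower, and 3 imprinted genes higher and 8 lower.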

How the data were processed

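Total RNA of mouse ES cells was sequenced in 10 libraries. The authors deposited read counts per gene symbol, not normalized, for 24015 genes and 5 summary categories. The tools were HTSeq 0.5.4p5, TopHat2 2.0.4, CASAVA 1.8.2 and DESeq2, with build mm9, per the submitters' processing notes. For the annotation, strand setting and read layout, nothing is given in the sources used here. Gene rows held 51.2 to 54.8% of records and reads aligned to more than 1 place 33.4 to 36.5%, which were counted for no gene, so multicopy genes are under-counted.

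The genes, lists, roles and tests were chosen with earlier results of these data known. CPM is a gene's count per 1000000 gene counts of its library. Tests on the counts used edgeR 4.0.16 in R 4.3.3 (filterByExpr, TMM, robust quasi-likelihood fit of all 5 groups, 5 residual degrees of freedom, two-sided, Benjamini-Hochberg over 14220 genes, threshold 0.05). Standard errors derive from the F statistic. On simulated counts for long against first 2i (13858 genes) 100% and 94% of genes changed 2-fold up and down and 88% and 84% of those changed 1.5-fold were recovered. There were 20 false calls. The changes were planted only in genes above a count threshold in first 2i, so recovery at the low counts of the serum groups was not tested. Named genes follow a rule: extremes of the ratio between media, the largest called changes per comparison, genes that passed nowhere within 2i, genes at the thresholds, listed genes and families; the other members named were added after their values were seen. Alternatives were RLE scaling, no filter, DESeq2 1.42.0, only the groups compared, a block for title series, and leaving out each library. RefSeq symbols matched 28 genes directly and 1 by synonym; as the files use another build, RefSeq tables gave names, order and promoter sequence only, with GRCm38.p6 coordinates of the promoters. The result of 1 marker gene is not reported here.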

Additional observations from a re-analysis of the deposited data

How the results depend on the processing

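The number of genes meeting the rule was 76 with a ratio of 4, 10 with a ratio of 16, 42 with a minimum of 2 CPM, 18 with a minimum of 10 CPM and 29 with TMM scaling, and leaving out each library gave 29 to 32. Counts of called genes within 2i stayed within 1.5 times in all 9 alternatives: 6 to 7 higher and 14 to 17 lower in long against first 2i, 5 higher and 13 to 16 lower in second against first 2i, and 8 to 9 higher and 7 to 9 lower in second against long 2i. No called gene changed direction, and Ctnnd2 and Phldb2 (long against first 2i) and Glis3 (second against long 2i) passed in some alternatives only, the block among them. In serum return against serum, leaving out 1 library gave 5 to 6 higher and 1 to 3 lower, and the other alternatives 6 to 8 and 3 to 4; fewer libraries were fitted there, with the lone library assumed to vary like the other groups. Of 22, 21, 17 and 12 called genes in long against first, second against first, second against long 2i and serum return against serum, 20, 16, 14 and 4 passed in every alternative. Besides calls given above, Gm13128, Mbp and Rims1 (second against long 2i) and Lhfpl2 (second against first 2i) were lost in at least 1 alternative, and the cause was not tested. With a replicate block for the title series, 7 genes were higher and 17 lower in long against first 2i, and 5 and 16, 9 and 9, and 8 and 4 in the other comparisons. Over all genes the block raised the calls in serum return against serum from 2347 to 3183 higher and from 2060 to 2989 lower, and in second against first 2i from 2570 to 3433 higher and from 2787 to 3500 lower. The labels do not say that a series marks a shared culture or day. The deviations of same-series libraries correlated positively in all 10 pairs of groups, at 0.0994 to 0.168 with 9 over 0.1, a weak shared deviation that was not taken as pairing because 1 fell short of 0.1. Depth limits serum levels, where a group held as few as 3 counts of a gene.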

Other observations

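Relatives and partners of Slit2 and Rasgrp1 were looked at after the set was known. Robo1, a receptor for Slit2, was read at 34.3 to 42.4 CPM in serum and 22.1 to 27.3 CPM in 2i, and Robo4, a receptor known from endothelium, at 44.1 to 57.9 CPM in serum and 0.047 to 0.999 CPM in 2i. The high level of Slit2 in 2i was set by the rule. From first to long 2i Robo1 fell 1.15-fold (adjusted p = 0.0474), as Slit2 fell, and Robo4 did not pass (log2 fold change 1.62, adjusted p = 0.0525). Slit3, at 1.49 to 8.04 CPM in 2i, fell 4.9-fold (adjusted p = 9.63e-09) from first to long 2i, where Slit2 fell 1.78-fold (adjusted p = 1.27e-08).

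Rasgrp2, another activator of Ras family GTPases, moved against Rasgrp1 in long 2i. Of 5 tested activators it was the 1 that rose (background 30.4%), while Rasgrp4, Sos1 and Sos2 fell with Rasgrp1 (background 30.8%). It rose 4.49-fold (adjusted p = 5.67e-14) from first to long 2i and was 7.95-fold (adjusted p = 2.05e-15) lower in second than in long 2i, whereas Rasgrp1 fell 3.08-fold (adjusted p = 1.58e-09) in long 2i. In second 2i Rasgrp2 was 1.77-fold (adjusted p = 8.84e-06) lower than in first 2i, the direction of Rasgrp1.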
